A study of Nasonia vitripennis with 76 samples.

Results

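RNA of the nuclear genes for complex III, complex IV and the ATP synthase was followed in 75 libraries of the jewel wasp *Nasonia vitripennis*. The genes are all those in the deposited count matrix whose symbol begins with Uqcr, with Atp5, or with Cox and a digit. This rule gave 29 of 14621 genes. They are 7 subunits of complex III, 8 subunits of complex IV, 13 subunits of the ATP synthase, and *Cox15*, an enzyme of heme A synthesis that serves the assembly of complex IV. All but 829 of the 14621 genes are named only by a LOC number in the files, and subunits among those were not analysed here.

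Males of this wasp usually arise from unfertilized eggs and are haploid, and females arise from fertilized eggs and are diploid. Every library comes from the TRA line, which is neo-polyploid and was induced artificially by knockdown of *transformer*, a gene of the sex determination cascade, so both the higher and the lower ploidy carry this history. Wasps were taken 1 day after emergence, and heads and abdomens were sequenced apart as polyadenylated RNA extracted without DNase. Triploid (3N) and diploid (2N) females came from generations F14 and F2, and diploid (2N) and haploid (1N) males came from generations F15 and F3. These make 16 groups of 5 libraries, but F2 2N female abdomens and F3 2N male abdomens have 3 each, and F2 3N female heads have 4, since library A34 was left out. Whether replicate libraries stem from different wasps, from pools or from repeated RNA of the same material is not in the labels, so each p-value measures only the spread between these libraries. No group spans generations and the labels give no batch, so generation and a difference between library batches cannot be told apart.

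Complex III passes electrons from ubiquinol to cytochrome c, complex IV passes them from cytochrome c to oxygen, and both move protons across the inner mitochondrial membrane. The ATP synthase lets protons return through its membrane part, Fo, whose rotor ring of c subunits turns the shaft of the catalytic head, F1, which makes ATP. The genes listed here are nuclear, their proteins are imported and built into the complexes together with subunits encoded by mitochondrial DNA, and tissues with a high demand for ATP, such as flight muscle and nerve, make much of them.

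Libraries held between 14.21 and 60.12 M expected counts. The labelled tissues were checked on markers. *Lop1*, an opsin of the eye, ran from 964 to 22908 TPM (transcript abundance per length, scaled to the same total in each library) in the heads. *oskar*, a germ plasm gene of the ovary, had at least 555 TPM in each female abdomen and at most 34.5 TPM in every other library used. A34, labelled a head of F2 3N females, had 0 TPM of *Lop1* and stood with the abdomens. Library A35 of the same group had the highest *Lop1* of all heads. In F3 1N male heads A1A and A2A had 12294 and 14846 TPM of *Lop1*, against 4561 to 4903 TPM in the others, but did not stand apart in *oskar*. A15A of F3 2N male heads had the most of both genes in its group, with 10562 TPM of *Lop1* against 8014 TPM in A12, the next. A1A, A2A and A15A were left out together because their names end in the letter A. Several of the results that rest on A35, or on A1A, A2A and A15A, are given with and without these libraries.

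The ATP synthase genes spread over most of the range of levels in the set, ranking from 1 to 24 of 29 by mean TPM, and levels between genes are compared here as TPM, which is per length. In the membrane part, *Atp5g2*, a gene for the rotor ring, had the highest mean over the 16 groups, 5300 TPM. *Atp5i* for subunit e had 2436 TPM, *Atp5j2* for subunit f 1676 TPM and *Atp5l* for subunit g 1606 TPM. Of the peripheral stalk, which holds the head still, *Atp5h* had 1617 TPM, *Atp5o* 1245 TPM, *Atp5f1* 676 TPM and *Atp5j* 588 TPM. In the head, *Atp5e* for epsilon stood at 1647 TPM, the catalytic beta subunit *Atp5b* at 1106 TPM, the alpha subunit *Atp5a1* at 1083 TPM, the shaft *Atp5c1* at 860 TPM and *Atp5d* for delta at 504 TPM.

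Complex III was led by its small subunits. *Uqcrq* averaged 2820 TPM, *Uqcr11* 1935 TPM, *Uqcrb* 1492 TPM and *Uqcrh*, the hinge protein at the cytochrome c side, 1095 TPM. The Rieske iron-sulfur protein *Uqcrfs1* averaged 715 TPM, the core protein *Uqcrc2* 401 TPM and the small *Uqcr10* 357 TPM. In complex IV, *Cox6a1* averaged 2570 TPM, *Cox6b1* 1984 TPM, *Cox7c* 1803 TPM, *Cox5a* 1553 TPM, *Cox5b* 1197 TPM and *Cox4I1* 1115 TPM. The 3 genes under 100 TPM were *Cox15* with 49.1 TPM, *Cox7a1* with 25.3 TPM and *Cox6c* with 1.84 TPM, against 19 members of at least 1000 TPM and 7 between.

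The joint level of the 29 genes, taken as the sum of their TPM, was highest in F14 female heads and lowest in F15 male abdomens. In female heads it was 66176 ± 9677 TPM in F14 3N wasps (SD, n = 5), 78998 ± 2898 TPM in F14 2N wasps (SD, n = 5), 50963 ± 9039 TPM in F2 3N wasps (SD, n = 4) and 39457 ± 2279 TPM in F2 2N wasps (SD, n = 5). This was 7.9% of all TPM in F14 2N and 3.94% in F2 2N female heads. In male heads the order of generations was the other way round, with 38720 ± 2506 TPM in F15 2N, 37682 ± 5789 TPM in F15 1N, 53329 ± 6037 TPM in F3 2N and 63608 ± 8656 TPM in F3 1N wasps (SD, n = 5 each).

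Abdomens held less of the set by TPM. As TMM-scaled CPM (counts per library total, not per length) the sum was 10265 in F2 2N female heads and 10067 in F2 2N female abdomens, and the log2 difference of heads minus abdomens was 0.53 in females and 0.44 in males, against 1.13 and 0.99 in TPM. In female abdomens the sum was 27725 ± 3719 TPM in F14 3N (n = 5), 27629 ± 673 TPM in F14 2N (n = 5), 23606 ± 690 TPM in F2 3N (n = 5) and 25002 ± 1682 TPM in F2 2N wasps (n = 3, SD throughout). In male abdomens it was 20132 ± 2208 TPM in F15 2N (n = 5), 17589 ± 1025 TPM in F15 1N (n = 5), 25308 ± 2064 TPM in F3 2N (n = 3) and 35403 ± 3431 TPM in F3 1N wasps (n = 5, SD throughout). The lowest F3 1N male abdomen, at 31592 TPM, lay above the highest of each other male abdomen group, 27507 TPM in F3 2N wasps. Within groups, the log2 of the sum had a pooled SD of 0.15 between libraries.

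**Figure D1:**
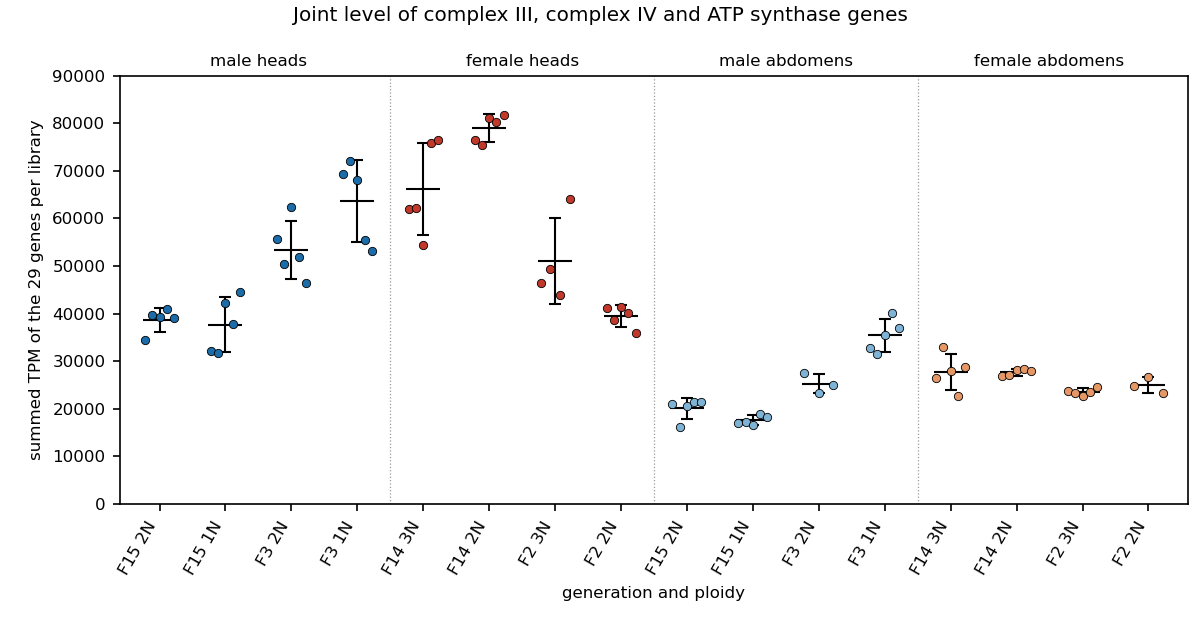
Summed TPM of the 29 genes (vertical axis) in each library (points) of the 16 groups, with the group mean (dash) and SD (bars). Female heads of F14 (54372 to 81780 TPM) lie above those of F2 except for A35 at 64105 TPM, and male heads of F15 (31670 to 44619 TPM) lie below those of F3.

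Most genes of the set followed this joint level. Across the 16 group means, 19 of the 29 genes had a correlation of at least 0.9 with the mean of the other members, as a description over groups that share libraries between genes. *Atp5l* followed it closest (r = 0.98), and 23 genes had their highest group mean in F14 2N female heads. Most ranged between their lowest and highest group by a factor such as 2.31 for *Cox5b*, 4.17 for *Atp5l*, 8.41 for *Atp5i* and 12.5 for *Uqcr10*. Correlations were under 0.6 for 6 genes: *Atp5g2* (0.59), *Atp5a1* (0.42), *Atp5b* (0.18), *Cox15* (0.18), *Cox6c* (-0.23) and *Cox7a1* (-0.28). Departure was also measured by the SD over groups of the log2 level relative to the mean of all 29 genes, the gene itself included. The 4 that departed most were *Cox7a1* (2.51), *Cox6c* (1.51), *Atp5b* (0.79) and *Cox15* (0.65).

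**Figure D2:**
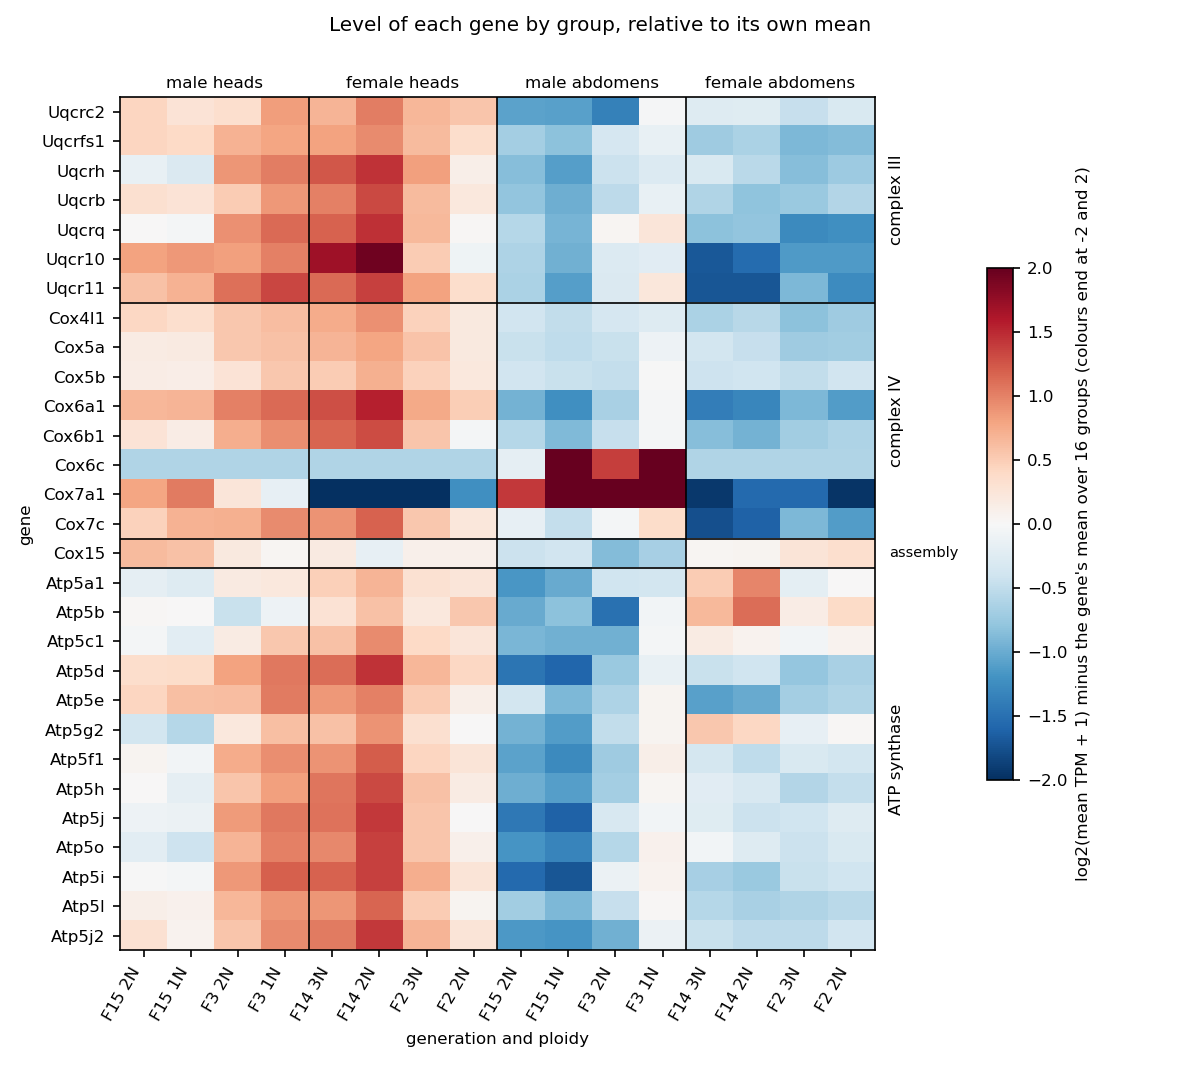
Colour shows log2(mean TPM + 1) of each of the 29 genes (rows, by complex) in each of the 16 groups (columns), minus the mean of that gene over the groups, with colours ending at -2 and 2. Most rows share 1 pattern with high F14 female heads and low F15 male abdomens, while the rows of *Cox7a1* and *Cox6c* are high in F3 1N male abdomens, where they averaged 292 and 20.5 TPM.

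The set differed between generations in opposite directions in female and in male heads. In female heads, F14 minus F2 as a mean over both ploidies, 25 of 27 tested members rose and none fell (edgeR quasi-likelihood test, Benjamini-Hochberg adjusted p under 0.05 over all genes of the fit), and without A35 the counts were the same. Of all genes tested there, 27.4% were called higher and 32.7% lower. The median log2 difference of the members was 1.00, against -0.04 for all genes. The joint level was 0.69 higher on the log2 scale, and 0.75 higher without A35. *Cox7a1* and *Cox6c* were too low to be tested in females.

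*Uqcr10* showed the largest of these differences. It had 715, 811, 896, 946 and 997 TPM in F14 3N heads and 972, 1007, 1021, 1083 and 1102 TPM in F14 2N heads. It had 354, 355, 376 and 453 TPM in F2 3N heads and 204, 244, 258, 262 and 302 TPM in F2 2N heads. No F14 library overlapped an F2 library, and the log2 difference was 1.81 ± 0.11 (SE, edgeR adjusted p = 9.8e-10).

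*Uqcrq* came next, with a log2 difference of 1.34 ± 0.15 (edgeR adjusted p = 9.7e-07), or 1.55 without A35. It had 4763 to 6017 TPM in F14 3N heads and 6195 to 6686 TPM in F14 2N heads. It had 2705, 2928, 3173 and 5986 TPM in F2 3N heads, where the highest library is A35, and 2104 to 2595 TPM in F2 2N heads. Only A35 overlapped the F14 libraries. All 7 genes of complex III rose (median 1.12), as did all 6 tested subunits of complex IV (median 0.85) and 12 of 13 genes of the ATP synthase (median 1.00). The smallest called differences were those of *Uqcrc2* (0.44) and *Atp5a1* (0.46). The 2 members not called were *Atp5b*, at 0.26 ± 0.19 (edgeR adjusted p = 0.248), and *Cox15*, at -0.05 ± 0.10 (edgeR adjusted p = 0.724). RNA of other genes of the chain was also higher, with 31 of 31 complex I genes called and 3 of 4 of complex II.

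Other measures moved with generation in these heads, and their part in the result was not tested. *Tm1*, the tropomyosin that was the 1 muscle marker with a symbol in the files, had 1077 to 3348 TPM in F14 3N and 1714 to 3425 TPM in F14 2N heads, against 316 to 728 TPM in F2 3N and 598 to 669 TPM in F2 2N heads. The summed TPM of the odorant receptor genes was 42.8 to 81.3 in F14 3N and 51.6 to 128 in F14 2N heads. It was 385 to 798 in F2 2N heads and 40.2 to 974 in F2 3N heads, where the lowest is A35. The nerve marker *Para* had 14.7 to 24.25 TPM in F14 3N and 15.94 to 19.23 TPM in F14 2N heads. It had 5.32 (A35) to 51.29 TPM in F2 3N and 55.32 to 74.84 TPM in F2 2N heads. The nerve marker *Pdf* ran the other way, with 761 to 1083 TPM in F14 3N and 713 to 966 TPM in F14 2N heads. *Pdf* had 551 to 2226 (A35) TPM in F2 3N and 382 to 527 TPM in F2 2N heads. *Lop1* and *Syt1* overlapped. In bulk RNA, fewer cells of a type and less RNA per cell cannot be told apart. The fat body marker *Mrjpl3* was also lower in F14 than in F2 heads, apart from A35. Total counts were 15.89 to 17.88 M in the F14 and 15.88 to 32.51 M in the F2 female heads. Genes with a count numbered 10586 to 11544 in F14 3N and 10976 to 11652 in F14 2N heads. They numbered 11391 (A35) to 12664 in F2 3N and 12401 to 12630 in F2 2N heads.

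Transcript length also moved with several differences. The expected count divided by the TPM of a gene is proportional to the length of its transcripts, and by this measure 24 of the 27 members tested in female heads fell among the shortest 25% of genes. In that class the median log2 difference between F14 and F2 female heads was 0.268, with 41.4% of genes called higher and 21.6% lower, and among the longest 25% the median was -0.258. Among the 27 members themselves the correlation of the log2 difference with log length was -0.632, over genes of the same libraries. Its part in the members' differences was not tested. For the other differences named below, this correlation across members reached -0.747 for heads minus abdomens in females and -0.73 for its change between generations. It was -0.716 for ploidy in F15 male abdomens and -0.683 for ploidy in F2 female heads. For sex it was -0.698 and -0.684 in early and late abdomens and -0.673 in early heads.

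In male heads, F15 minus F3, 21 of 28 tested members fell and 2 rose, where 28% of all genes were called lower and 23.4% higher. The median of the members was -0.50, and the joint level was 0.61 lower on the log2 scale. Without A1A, A2A and A15A 19 members fell and 2 rose, and the joint level difference was -0.58. *Uqcrh* had 742, 797, 829, 891 and 951 TPM in F15 2N heads and 646, 676, 779, 837 and 868 TPM in F15 1N heads. It had 1436, 1629, 1751, 1842 and 1922 TPM in F3 2N heads and 1135, 1317, 1714, 2579 and 2763 TPM in F3 1N heads. Every F15 library lay below every F3 library, and the log2 difference was -1.23 ± 0.18 (edgeR adjusted p = 1.8e-05), or -0.86 without A1A, A2A and A15A (1.1e-05).

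*Atp5o*, the stalk subunit that confers oligomycin sensitivity, had 824 to 1125 TPM in F15 2N and 670 to 1005 TPM in F15 1N heads, and 1522 to 2184 TPM in F3 2N and 1813 to 2505 TPM in F3 1N heads. These did not overlap, and the log2 difference was -1.21 ± 0.13 (edgeR adjusted p = 5.1e-07). All 8 genes of the membrane part of the ATP synthase fell, as did 3 of 5 of its head, 5 of 7 genes of complex III and 5 of 7 tested subunits of complex IV. The 2 members that rose were *Cox7a1*, by 1.31 ± 0.36 (edgeR adjusted p = 0.00546), and *Cox15*, by 0.48 ± 0.09 (edgeR adjusted p = 0.000189). *Cox15* had 62.8 to 87.3 TPM in F15 2N and 60.9 to 88.8 TPM in F15 1N heads, against 46.1 to 59.1 TPM in F3 2N and 40.2 to 59.2 TPM in F3 1N heads, with no overlap. Of complex I genes, 20 of 31 fell and 1 rose.

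Some markers of the fat body list moved with generation in male heads, in opposite directions, and their part in the result was not tested. *Hex83* had 0.92 to 2.97 TPM in F15 2N and 0.80 to 2.71 TPM in F15 1N heads, against 8.86 to 20.97 TPM in F3 2N and 3.58 to 14.65 TPM in F3 1N heads. *Mrjpl5* had 42.8 to 79.7 TPM in F15 2N and 51.97 to 147.9 TPM in F15 1N heads, against 20.2 to 35.6 TPM in F3 2N and 5.75 to 19.5 TPM in F3 1N heads. Neither overlapped between generations, *Hex83* being lower and *Mrjpl5* higher in F15. *Mrjpl3* overlapped, with 173.8 to 722.9 TPM over the F15 and 13.7 to 178.2 TPM over the F3 heads. The other genes of this list with a symbol in the files, *Akhr*, *Hex109* and *Hex70b*, overlapped between generations as well. *Tm1* also overlapped, with 608 to 1074 TPM in F15 2N and 709 to 1565 TPM in F15 1N heads, against 280 to 1725 TPM in F3 2N and 710.5 to 2666 TPM in F3 1N heads.

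In male abdomens, F15 minus F3, 22 of 29 members fell and 1 rose, where 25.9% of all genes were called lower and 27.3% higher. The median was -0.56, and the joint level was 0.67 lower on the log2 scale. *Atp5i* had 494 to 884 TPM in F15 2N and 422 to 932 TPM in F15 1N abdomens, against 1646, 1952 and 2036 TPM in F3 2N and 1804 to 2538 TPM in F3 1N abdomens, a log2 difference of -1.53. *Cox6c* (-2.34 ± 0.52, edgeR adjusted p = 0.00111) and *Cox7a1* (-1.98 ± 0.47, 0.00189) had the largest fitted falls, but without A16 *Cox7a1* stood at -1.22. *Cox15* was again the member that rose, by 0.50 ± 0.10 (edgeR adjusted p = 0.000426). With total counts and no further scaling this was 0.28 (edgeR adjusted p = 0.0512), a setting that moved the median of all genes by -0.23. *Tm1* was mostly lower in F15 here, with 959 to 2414 TPM in F15 2N and 1115 to 1501 TPM in F15 1N abdomens, against 2093 to 2738 TPM in F3 2N and 2055 to 4473 TPM in F3 1N abdomens. The generations overlapped in *Tm1* through A90 of F15 2N. *Mrjpl3* was higher in F15 without overlap, with 254.9 to 688.2 TPM in F15 2N and 298.9 to 480.5 TPM in F15 1N abdomens. It had 69.1 to 113.9 TPM in F3 2N and 34.4 to 84.3 TPM in F3 1N abdomens. The other markers overlapped, and the part of these markers was not tested.

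**Figure D3:**
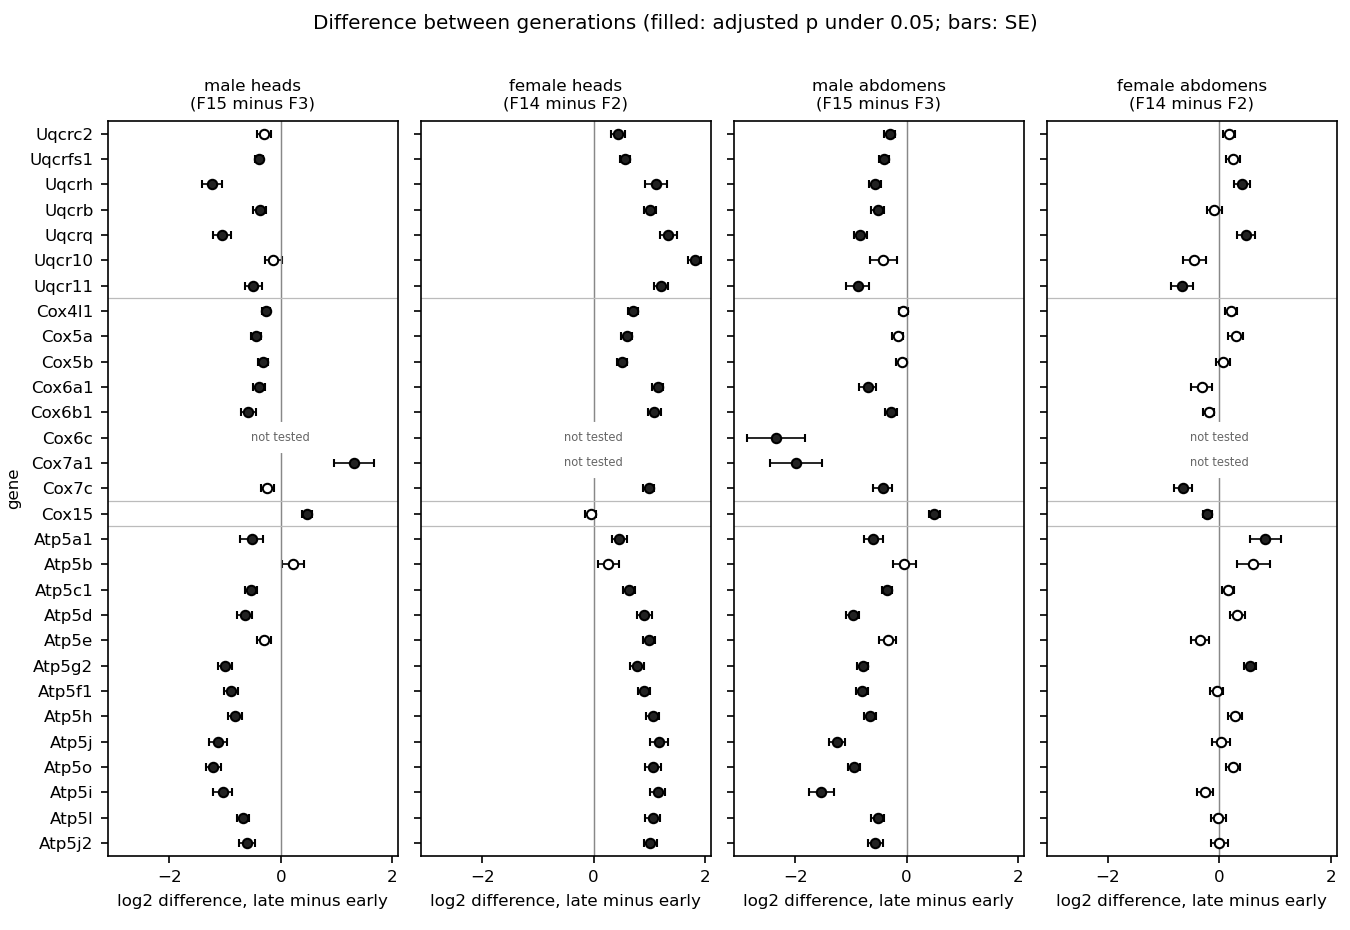
The log2 difference with its SE between the late and the early generation for each member, in male heads, female heads, male abdomens and female abdomens, and filled points were called by edgeR at adjusted p under 0.05. The members lie mostly above 0 in female heads (median 1.00), below 0 in male heads (-0.50) and male abdomens (-0.56), and about 0 in female abdomens (0.06).

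Female abdomens showed no common direction with generation. For F14 minus F2, 4 of 27 members rose and 3 fell, where 21.6% of all genes were called higher and 22.3% lower, and the members' median was 0.06. *Atp5g2* had 5757 to 8316 TPM in F14 3N and 6137 to 6862 TPM in F14 2N abdomens, against 4108 to 4663 TPM in F2 3N and 4708, 5014 and 5308 TPM in F2 2N abdomens. No library of one generation overlapped the other, and the log2 difference was 0.55 ± 0.11 (edgeR adjusted p = 0.00119). *Uqcr11* fell by 0.67 ± 0.20 (edgeR adjusted p = 0.0132) and *Cox7c*, a small membrane subunit of complex IV, by 0.66 ± 0.16 (edgeR adjusted p = 0.00413). *Cox7c* had 324 to 613 TPM in F14 3N and 405 to 642 TPM in F14 2N abdomens, against 708 to 897 TPM in F2 3N and 650, 665 and 811 TPM in F2 2N abdomens, again with no overlap.

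*Atp5a1* had the largest called rise in female abdomens, 0.82 ± 0.28 (edgeR adjusted p = 0.0259). Its libraries were far apart within groups, with 697 TPM in A70 and 2131 to 2419 TPM in the other 4 of F14 2N wasps. Without A28 it was 0.65 (edgeR adjusted p = 0.0694) and without A58 0.71 (0.0503). The count of 7 called members became 11 without A59 or A70 and 12 without A57, and without A70 or A57 more members fell (6 and 8) than rose (5 and 4).

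The 3N and 2N females were compared within each generation. In F2 heads 4 of 27 members rose in 3N wasps and none fell, where 3.63% of all genes were called higher and 2.18% lower. The members' median was 0.49, and 20 passed at an unadjusted p under 0.05. *Uqcr10* rose by 0.69 ± 0.15 (edgeR adjusted p = 0.0181), and its F2 3N libraries, given above, did not overlap the F2 2N ones. *Uqcr11* (0.57 ± 0.16), *Cox6b1* (0.58 ± 0.17) and *Uqcrq* (0.77 ± 0.21) were also called, with adjusted p-values in edgeR of 0.0483, 0.047 and 0.0412. *Cox6b1*, a subunit at the intermembrane side of complex IV, had 2005, 2107, 2258 and 3875 TPM in F2 3N heads, the highest in A35, against 1489 to 1806 TPM in F2 2N heads.

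This count depended on single libraries. With the 1 library A35 also left out, *Uqcrq* stood at 0.34 (edgeR adjusted p = 0.109) and 1 member was called, and with A34 kept none was. DESeq2 called 12. Leaving out 1 library at a time gave 0 members without A25, 1 without any of A21, A22, A23, A24, A35, A51, A52, A61, A63, A64 and A65, 2 without A62, 8 without A54, 10 without A31 and 13 without A33. *Uqcr10* stood at 0.63 without A25 (edgeR adjusted p = 0.0552), and *Uqcrq* was lost without any of 12 libraries, at an adjusted p of 0.0502 to 0.109. Fitting only the 2 compared groups called 0 members.

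In F14 heads edgeR called no member for ploidy, with 2.38% of all genes called higher and 1.18% lower. The median was -0.42, 17 members were lower at an unadjusted p under 0.05, and DESeq2 called 7 of them lower. *Uqcrh* had 2002 to 2473 TPM in 3N and 2430 to 2603 TPM in 2N heads, and A53 was the lowest 3N library for most members. Without A35, a library of neither compared group, edgeR called 14 members lower. It called 10 without A54, 5 without A55 and 2 without A62.

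The ploidy difference changed between the generations of female heads. For 19 of 27 members the 3N minus 2N difference was lower in F14 than in F2 and for none higher, where 3.77% of all genes were called lower and 2.7% higher. The median change was -0.83 on the log2 scale. *Uqcrq* changed by -1.19 ± 0.29 (edgeR adjusted p = 0.0257), *Atp5j*, the stalk subunit F6, by -1.14 ± 0.32 (0.0421) and *Uqcr10* by -1.09 ± 0.21 (0.0117). All 6 tested subunits of complex IV, 5 of 7 of complex III and 7 of 8 of the membrane part of the ATP synthase were called, and 1 of 5 of its head.

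Fewer members were called without some libraries: 6 without A25, A51 or A52, 7 without A63, 8 without A64, 9 without A22 or A24, 11 without A23 and 12 without A61 or A65. With A34 kept none was called. *Uqcrq* was not called without A25, A51 or A52 (adjusted p of 0.0511 to 0.0522), and *Atp5j* was not called without any of 11 libraries (0.0614 to 0.0787). Without A35 the changes of *Uqcrq* and *Atp5j* were -0.76 and -0.70, both still called.

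In female abdomens edgeR called no member for ploidy in either generation. In F2, where 0% of all genes were called higher and 0% lower, no member passed at an unadjusted p under 0.05 and DESeq2 called none. In F14, where 0% were called higher and 0.0553% lower, the same counts held. The median was -0.22 in F2 and 0.04 in F14. The change between generations was called for no member, with 5.78% of all genes higher and 5.49% lower, 1 member at an unadjusted p under 0.05 and none in DESeq2. Both the 3N and the 2N abdomens of F14 held libraries with low and with high *Atp5a1* and *Atp5b*, described at the end.

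Diploid and haploid males were likewise compared within each generation. In F3 heads 9 of 28 members fell in 2N wasps and none rose, where 6.74% of all genes were called lower and 5.24% higher. The median was -0.50, and 23 members were lower at an unadjusted p under 0.05. *Uqcrc2*, the core protein of complex III, had 298 (A15A), 361, 445, 527 and 640 TPM in 2N heads, against 416 (A2A), 510 (A1A), 707, 716 and 883 TPM in 1N heads. The groups overlapped, at a log2 difference of -0.74 ± 0.19 (edgeR adjusted p = 0.0154).

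*Atp5e*, the epsilon subunit of the head, fell by 0.72 ± 0.18 in the same comparison (edgeR adjusted p = 0.0157), with 1987 to 2563 TPM in 2N and 2463 to 3362 TPM in 1N heads. *Cox5b*, a zinc-binding subunit, fell by 0.52 ± 0.12 (edgeR adjusted p = 0.00894). Of the ATP synthase genes 6 of 13 fell, and of complex I 7 of 31. *Cox7a1*, at 0.49 ± 0.52 (edgeR adjusted p = 0.577), was the 1 member above 0. It stood at 0.24 without A1A, 0.89 without A4 and -0.24 without A1A, A2A and A15A.

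The F3 male heads were uneven. The *Tm1* range, given above, was lower in 2N than in 1N heads but overlapped it. The odorant receptors summed to 61.5 to 116 TPM in 2N and 35.1 to 541 TPM in 1N heads. *Akhr* was higher in 2N heads without overlap, with 27.7 to 58.1 against 14.8 to 24.4 TPM. So were *Mrjpl5*, with 20.2 to 35.6 against 5.75 to 19.5 TPM, and *oskar*, with 9.54 to 29.3 against 4.78 to 7.61 TPM. The other markers overlapped, and the part of all these measures was not tested. A1A and A2A, both 1N, held 4127 and 4311 TPM of *Cox6b1*, against 2507 to 3007 TPM in the other 3 of their group, but had the lowest *Uqcrc2* of it. Without A1A, A2A and A15A, 3 members were called and the joint level difference was -0.09, against -0.25 with them, which was -0.49 as TMM-scaled CPM. With 1 library left out the count was 0 without A3, 1 without A12, 3 without A14 and 5 without A1A or A2A. *Uqcrc2* stood at -0.56 without A3 (edgeR adjusted p = 0.0709) and -0.64 without A12 (0.0577), and *Atp5e* was also not called without A3, A12 or A14 (0.0554 to 0.0632).

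In F15 male heads edgeR called no member for ploidy, with 2.18% of all genes called higher and 1.07% lower. The median was -0.16, 1 member was lower at an unadjusted p under 0.05, and DESeq2 called none. The change of the ploidy difference from F3 to F15 was called for no member, with 3.93% of all genes higher and 4.72% lower. It had a median of 0.34, with 6 members higher at an unadjusted p under 0.05 and none in DESeq2. Without A13, 3 members were called higher.

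In F3 male abdomens 7 of 29 members fell in 2N wasps and none rose, where 19.6% of all genes were called lower and 21.3% higher. The share that fell was near that of all genes, and without *Cox6c* and *Cox7a1* 5 of 27 members fell. This count is therefore no result about the set. *Uqcrc2* had 131, 136 and 155 TPM in 2N abdomens, against 321, 322, 364, 369 and 385 TPM in 1N abdomens. The groups did not overlap, and the log2 difference was -1.03 ± 0.16 (edgeR adjusted p = 0.00013). *Atp5b*, the catalytic subunit, fell by 1.12 ± 0.33 (edgeR adjusted p = 0.0129), while its partner *Atp5a1* was at 0.27 ± 0.25 (0.406). *Atp5c1* (-0.64), *Atp5f1* (-0.54) and *Atp5j2* (-0.53) were also called, along with *Cox7a1* and *Cox6c*, described below. The joint level was 0.48 lower in TPM and 0.31 lower as TMM-scaled CPM, while the members' median was -0.18. The count was 3 without A18 and 4 without A20.

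Some markers moved with this ploidy difference too, and their part was not tested. Of the 6 genes of the fat body list with a symbol in the files, 4 were higher in 2N abdomens without overlap. *Akhr* had 189 to 241 TPM in 2N and 27.5 to 98.9 TPM in 1N abdomens, *Mrjpl5* 185 to 267 TPM in 2N and 35.7 to 64.8 TPM in 1N abdomens, *Hex109* 7.40 to 14.85 TPM in 2N and 2.60 to 4.85 TPM in 1N abdomens, and *Hex83* 7 to 14.94 TPM in 2N and 2.22 to 4.80 TPM in 1N abdomens. *Hex70b* was lower in 2N, with 0.78 to 1.97 TPM against 3.66 to 12.3 TPM in 1N, and *Mrjpl3* overlapped. Of the eye and nerve list *Syt1* had 39.4 to 50.9 TPM in 2N and 10.9 to 20.5 TPM in 1N abdomens, while *Lop1*, *Pdf*, *Para* and *Or1* overlapped. The cyclin gene *cycB* of the germ line list had 0.84 to 1.78 TPM in 2N and 6.96 to 10.71 TPM in 1N abdomens. From the same list *oskar* and *nanos* overlapped, as did *Tm1*.

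In F15 male abdomens *Cox6c* was the 1 member called, lower in 2N wasps, where 2.93% of all genes were called lower and 1.18% higher. The median was 0.21, with 5 members higher and 2 lower at an unadjusted p under 0.05. DESeq2 called 1 higher and 2 lower, and edgeR called 2 without A78 or A87. The ploidy difference was higher in F15 than in F3 for 4 members and lower for none, where 9.54% of all genes were called higher and 12% lower. These were *Uqcrc2* (1.12 ± 0.21, edgeR adjusted p = 0.0014), *Atp5e* (0.99 ± 0.30, 0.0248), *Atp5f1* (0.81) and *Atp5c1* (0.76). *Uqcrc2* had 143 to 199 TPM in F15 2N and 116 to 196 TPM in F15 1N abdomens, so both lay near the F3 2N level and below the F3 1N level. The count was 8 without A16 or A87, and *Atp5e* was not called without A18 or A20 (edgeR adjusted p = 0.0773 and 0.0675).

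Sex was compared between 2N males and 2N females. In heads of the early generations, F3 and F2, 19 of 28 members were higher in males and 1 lower, where 23.1% of all genes were called higher and 21.5% lower. The median was 0.51. *Uqcrq* had 4126, 4395, 4441, 4628 and 4794 TPM in F3 2N males, against 2104, 2243, 2490, 2543 and 2595 TPM in F2 2N females, with no overlap and a log2 difference of 1.05 ± 0.22 (edgeR adjusted p = 0.000371). *Atp5b* was the member lower in males, at -0.94 ± 0.27 (edgeR adjusted p = 0.00615). Without A1A, A2A and A15A the counts were again 19 and 1, and *Uqcrq* stood at 0.94. Of these libraries A15A lies in a compared group, while A1A and A2A are 1N and only share the fit. Of the shortest 25% of genes, 41.3% were called higher in males.

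In heads of the late generations, F15 and F14, 26 of 28 members were lower in males and 2 higher, where 24.1% of all genes were called lower and 28.6% higher. The median was -1.23. *Uqcrh* had 742 to 951 TPM in F15 2N males, against 2430, 2482, 2576, 2586 and 2603 TPM in F14 2N females. This was the largest fall, -1.88 ± 0.27 (edgeR adjusted p = 8.6e-07), followed by *Atp5o* at -1.86 ± 0.19 (1.9e-09). All 13 ATP synthase genes and all 7 genes of complex III were lower in males. The 2 higher ones were *Cox7a1* (5.69 ± 0.83, edgeR adjusted p = 1.5e-06) and *Cox15* (0.70 ± 0.13, 4.4e-05), and *Cox15* had 62.8 to 87.3 TPM in these males, against 38.5 to 46.0 TPM in these females. *Cox7a1* had 4.69 to 10.3 TPM in these males, against 0.49 TPM in A64 and 0 TPM in every other library of these females. The size of its difference thus rests on female values near 0, and it was 7.25 without A64. Markers without overlap ran in both directions here. *Tm1* was lower in males, like most of the set, with 608 to 1074 TPM in F15 2N males and 1714 to 3425 TPM in F14 2N females. *Hex83* was lower in males too, with 0.92 to 2.97 against 7.91 to 8.89 TPM. *Para* was higher in males, with 24.65 to 40.77 against 15.94 to 19.23 TPM, as were *Akhr*, *Mrjpl3*, *Mrjpl5* and *oskar*. The other markers overlapped, and the part of all of them was not tested.

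The sex difference in heads, late minus early, changed downwards for 25 of 28 members and upwards for 2, where 27.2% of all genes were called lower and 30.6% higher. The median change was -1.81 on the log2 scale. *Uqcrq* changed by -2.81 ± 0.32 (edgeR adjusted p = 1.1e-08) and *Uqcrh* by -2.76 ± 0.38 (4.1e-07). *Cox7a1* (3.29 ± 1.07, edgeR adjusted p = 0.00948) and *Cox15* (0.59 ± 0.19, 0.00786) changed upwards. The size for *Cox7a1* rests on the same female values near 0, and it was 4.87 without A64. *Atp5b* did not pass, at 0.10 ± 0.38 (edgeR adjusted p = 0.833). Of complex I genes 29 of 31 changed downwards.

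In abdomens sex differences ran in both directions, and no test compared the complexes. In the early generations 11 of 29 members were higher in F3 2N males than in F2 2N females and 4 lower, where 42.6% of all genes were called higher and 38.9% lower, so both shares were smaller among the members. Higher were 5 of 7 genes of complex III and 6 of 8 subunits of complex IV, but none of the 13 ATP synthase genes. *Cox7a1* was higher by 6.86 ± 1.16 (edgeR adjusted p = 3.4e-06) and *Uqcrq* by 1.61 ± 0.26 (1.4e-06), with 2256, 2413 and 2634 TPM of *Uqcrq* in males against 897, 1028 and 1092 TPM in females. *Cox7a1* had at most 0.61 TPM in these females, so the size of its difference rests on values near 0, and it was 5.18 without A16. *Cox15* decreased by 1.00 ± 0.15 in males relative to females (edgeR adjusted p = 5.3e-07). The others lower in males were *Atp5b* (-1.65 ± 0.46, edgeR adjusted p = 0.00159), *Uqcrc2* (-0.77) and *Atp5c1* (-0.76). *Cox15* had 21.8, 23.6 and 30.7 TPM in males, against 52.1, 58.2 and 69.5 TPM in females.

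In the late generations 10 members were higher in F15 2N males than in F14 2N females and 9 lower, where 38.5% of all genes were called higher and 36.9% lower. Both shares were again smaller among the members, so these counts are no result about the set. Again 6 of 8 subunits of complex IV were higher, and 8 of 13 ATP synthase genes were lower, among them *Atp5a1* (-1.81 ± 0.32, edgeR adjusted p = 9.2e-06) and *Atp5b* (-1.79 ± 0.36, 3.9e-05). *Cox7c* was higher by 1.77 ± 0.24 (edgeR adjusted p = 6.2e-08), with 1044 to 1825 TPM in males against 405 to 642 TPM in females. *Cox7a1* was higher by 4.25 ± 0.79 (edgeR adjusted p = 1.6e-05), a size that rests on at most 1.77 TPM in these females. With total counts and no further scaling, which moved the median of all genes by -0.364, 6 members were higher and 14 lower. Leaving out any 1 of A76, A78, A80, A86 and A89 also turned the majority, at 9 or 10 higher and 10 or 11 lower. Of these, A76, A78 and A80 are F15 1N libraries, which share the fit but lie outside the compared groups.

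The sex difference in abdomens changed downwards between the generations for 7 members and upwards for 1, where 23.1% of all genes were called lower and 21.9% higher, so the members' share was close to that of all genes downwards and smaller upwards. Of the 7, 6 are ATP synthase genes, among them *Atp5a1* (-1.60 ± 0.52, edgeR adjusted p = 0.0126) and *Atp5i* (-1.10 ± 0.42, 0.0311). *Cox15* changed upwards (0.83 ± 0.19, edgeR adjusted p = 0.000778), and *Cox7a1* did not pass, at -2.61 ± 1.49 (0.154), or -0.97 without A16. The count of 8 was 3 without A28, 4 without A16 and 5 without A70. *Atp5a1* stood at -1.18 without A28 (edgeR adjusted p = 0.0549), and *Atp5i* was not called without any of A16, A20, A28, A70, A87, A88, A89 and A90 (0.0523 to 0.106).

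Heads held more of the set than abdomens in both sexes. In females 23 of 27 members were higher in heads and 1 lower, where 44.4% of all genes were called higher and 44.3% lower, with a median of 1.08, and without A35 the counts were the same. *Uqcr11*, with 2575 to 4143 TPM in F14 and 1724 to 3222 TPM in F2 heads against 284 to 721 TPM in F14 and 503 to 869 TPM in F2 abdomens, differed most (2.40 ± 0.13, edgeR adjusted p = 1.9e-18). *Uqcr10* was next (2.20 ± 0.13, edgeR adjusted p = 1.8e-17). The lower member was *Cox15* (-0.38 ± 0.06, edgeR adjusted p = 1.8e-06), and *Atp5a1*, *Atp5b* and *Atp5g2* were not called, at -0.10, -0.37 and 0.08.

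The tissue difference of females was larger in F14 than in F2 for 21 members (23 without A35) and smaller for none, where 19.7% of all genes were called higher and 29.6% lower. It changed by 2.30 ± 0.24 for *Uqcr10* (edgeR adjusted p = 5.6e-09) and by 1.92 ± 0.23 for *Uqcr11* (9.2e-08). In males 23 of 29 members were higher in heads and 2 lower, where 40.7% of all genes were called higher and 39.8% lower, with a median of 0.53. *Cox6a1* (1.17 ± 0.10, edgeR adjusted p = 5.3e-13) and *Atp5d* (1.16 ± 0.09, 2.7e-13) had the largest rises, and *Cox6a1* had 2616 to 4289 TPM in F15 and 2904 to 4829 TPM in F3 heads, against 747 to 1302 TPM in F15 and 1178 to 2297 TPM in F3 abdomens. The 2 lower in heads were *Cox7a1* (-3.24 ± 0.29, edgeR adjusted p = 4.4e-12) and *Cox6c*, which was at 0 TPM in every head. Without A1A, A2A and A15A 22 members were higher and 2 lower, and *Cox6a1* stood at 1.08. *Cox15* was higher in heads here (0.49 ± 0.07, edgeR adjusted p = 3.7e-08), while it was lower in heads of females.

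The tissue difference of males changed between generations for 1 member, *Cox7a1*, upwards by 3.38 ± 0.57 (edgeR adjusted p = 5.1e-05), where 12.9% of all genes were called higher and 10.9% lower. Beside *Cox7a1*, 3 members changed downwards without A5, A16 or A75 and 2 without A4, and the count was 3 without A2A or A78 and 2 without any of 19 other libraries.

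*Cox7a1* was highest in male abdomens, and most of all in those of haploid F3 males. In mammals it encodes the heart and muscle form of subunit 7a of complex IV. It had 229, 236, 246, 340 and 411 TPM in F3 1N male abdomens, against 11.7 (A18), 11.8 (A20) and 60.7 (A16) TPM in F3 2N male abdomens. These did not overlap, and 2N minus 1N was -3.19 ± 0.80 on the log2 scale (edgeR adjusted p = 0.0047), in a comparison with 3 diploid libraries. In F15 it had 4.05, 6.42, 10.9, 16.1 and 23.9 TPM in 2N and 15.7, 20.6, 46.0, 46.2 and 88.7 TPM in 1N male abdomens. These groups overlapped, and the difference of -1.83 ± 0.64 was not called by edgeR (adjusted p = 0.126) but was by DESeq2 (-1.88, adjusted p = 0.0236). In edgeR it was -1.15 without A78.

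The change of that ploidy difference between generations was 1.36 ± 0.95 (edgeR adjusted p = 0.327), and without A16 it was 2.88 (0.0404). Male heads had *Cox7a1* at 4.69 to 10.3 TPM in F15 2N, 3.73 to 12.9 TPM in F15 1N, 2.90 to 7.48 TPM in F3 2N and 0 to 7.93 TPM in F3 1N wasps, where A1A had 0 TPM and A2A 1.01 TPM. These heads lay below the abdomens of their own group in 1N males of both generations and in F3 2N males, and overlapped them in F15 2N males. No female library exceeded 2.04 TPM, and the head difference between 2N males and 2N females was 2.40 ± 0.62 in the early generations (edgeR adjusted p = 0.0026).

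*Cox6c*, in mammals a small membrane subunit of complex IV, was detected only in male abdomens among the 75 libraries. It had 11.9, 13.8, 17.7, 27.4 and 31.6 TPM in F3 1N male abdomens, against 1.00, 3.59 and 4.26 TPM in F3 2N ones, with no overlap. The log2 difference was -2.48 ± 0.81 (edgeR adjusted p = 0.0218), and it was not called without A18 (-2.07, 0.0927) or A20 (-2.60, 0.0595). In F15 it had 0, 0.26, 0.26, 0.39 and 0.76 TPM in 2N and 1.72, 3.02, 3.56, 4.12 and 16.2 TPM in 1N male abdomens, again with no overlap, at -3.92 ± 0.77 (edgeR adjusted p = 0.00954, and 0.0818 when only the compared groups were fitted). The change between generations was -1.44 ± 1.02 (edgeR adjusted p = 0.337), and it stood at -0.50 without A78 and -2.17 without A88.

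Every head and every female abdomen had 0 TPM of *Cox6c*. Against a floor of 3 counts in each library of the group at 0, *Cox6c* in F3 1N male abdomens was at least 56.4-fold higher than in F3 1N male heads, F3 2N male abdomens were at least 9.93-fold higher than F3 2N male heads and at least 12.7-fold higher than F2 2N female abdomens, and F15 1N male abdomens were at least 14.6-fold higher than F15 1N male heads. F15 2N male abdomens were at least 1.23-fold higher than F14 2N female abdomens. Against F15 2N male heads they gave no bound, since their mean of 0.14 CPM lay under the floor of 0.171 CPM. Both genes were low beside the other subunits of complex IV in the same abdomens, such as *Cox7c* with 1819 to 2312 TPM in F3 1N males. No marker list for testis or other male tissue was used, and the part of cell composition was not tested.

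**Figure D4:**
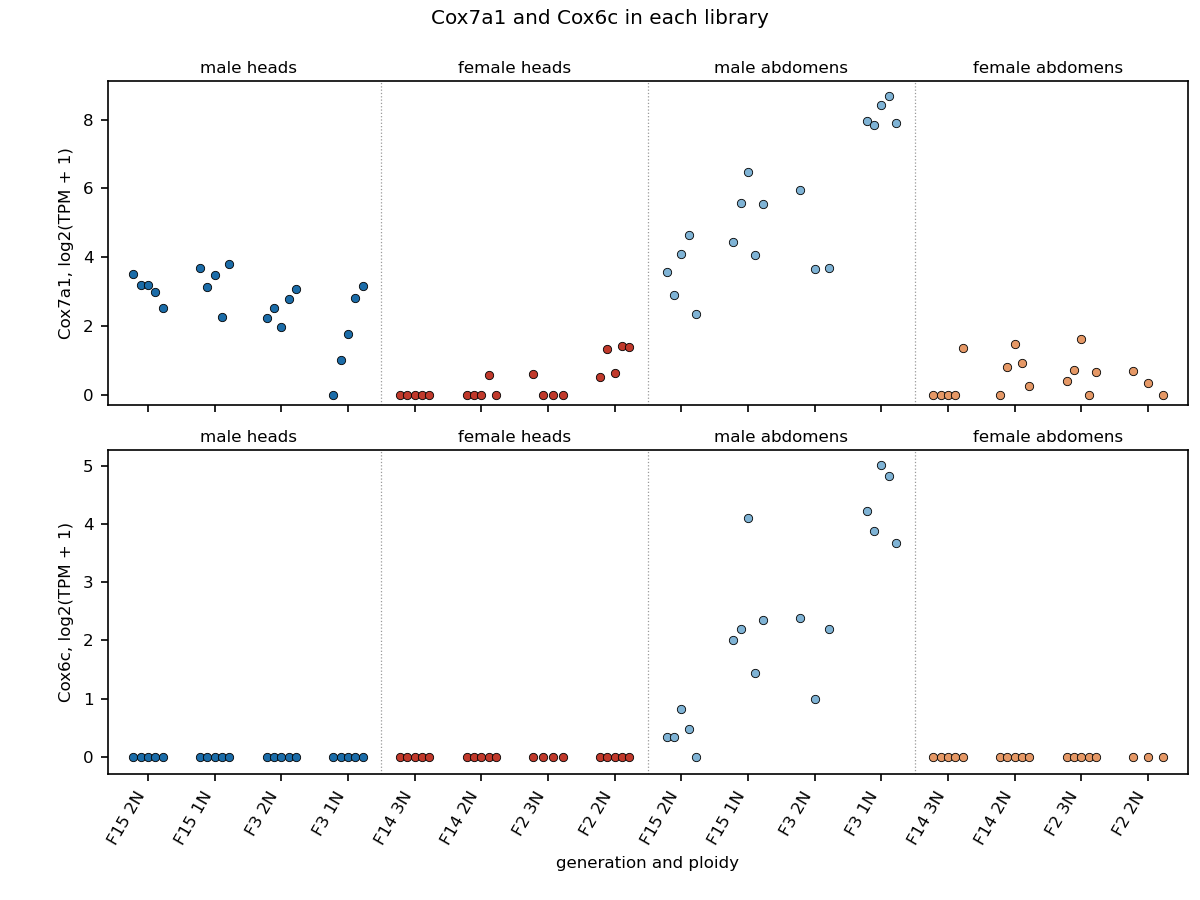
Log2(TPM + 1) of *Cox7a1* (upper panel) and *Cox6c* (lower panel) in each library (points) of the 16 groups. F3 1N abdomens (229 to 411 TPM of *Cox7a1*, 11.9 to 31.6 TPM of *Cox6c*) lie highest for both genes except for 1 F15 1N library of *Cox6c* at 16.2 TPM, and all heads and female abdomens are at 0 for *Cox6c*.

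The catalytic pair of the ATP synthase head, which is built from equal numbers of alpha and beta subunits, did not always keep step in RNA. The ratio of *Atp5b* to *Atp5a1* in TPM is a measure chosen after its values were seen, and it is given as a description. It was 0.520 to 0.801 in F3 2N male heads and 0.407 to 0.540 in F3 2N male abdomens. In F3 1N males it was 1.10 to 1.29 in abdomens and had a median of 1.14 in heads, where A2A had 0.426 and A1A 0.588. The F3 2N and F3 1N abdomens did not overlap in this ratio.

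Elsewhere the ratio lay near or above 1 in most groups. In F2 heads it was 1.13 to 1.19 in 3N females, apart from A35 with 0.373, and 1.11 to 1.3 in 2N females. In F14 heads it was 0.715 to 0.956 in 3N and 0.831 to 1.05 in 2N females. F15 males had 1.04 to 1.25 in 2N and 1.05 to 1.25 in 1N heads, and 0.980 to 1.17 in 2N and 0.871 to 1.22 in 1N abdomens. Female abdomens had 1.06 to 1.12 in F14 3N, 1.06 to 1.14 in F14 2N, 1.20 to 1.31 in F2 3N and 1.26 to 1.3 in F2 2N wasps.

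*Atp5a1* and *Atp5b* also varied together between libraries of 1 group. In F14 2N female abdomens A70 had 697 TPM of *Atp5a1* and 737 TPM of *Atp5b*, against 2131 to 2419 and 2348 to 2768 TPM in the other 4, while *Atp5o* had 994 TPM in A70 and 827 to 959 TPM in the others. In F14 3N female abdomens A58 had 2330 TPM of *Atp5a1* and 2563 TPM of *Atp5b*, and A59 had 2028 and 2272 TPM, against 867 to 1070 and 922 to 1161 TPM in A56, A57 and A60. *Atp5o* ran the other way there, with 749 and 949 TPM in A59 and A58 and 1038 to 1287 TPM in the other 3. Libraries with high and with low values were thus found in both F14 ploidies. In F2 2N female abdomens A28 had 424 TPM of *Atp5a1* and 548 TPM of *Atp5b*, against 1112 and 1523 and 1400 and 1983 TPM in A26 and A27.

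**Figure D5:**
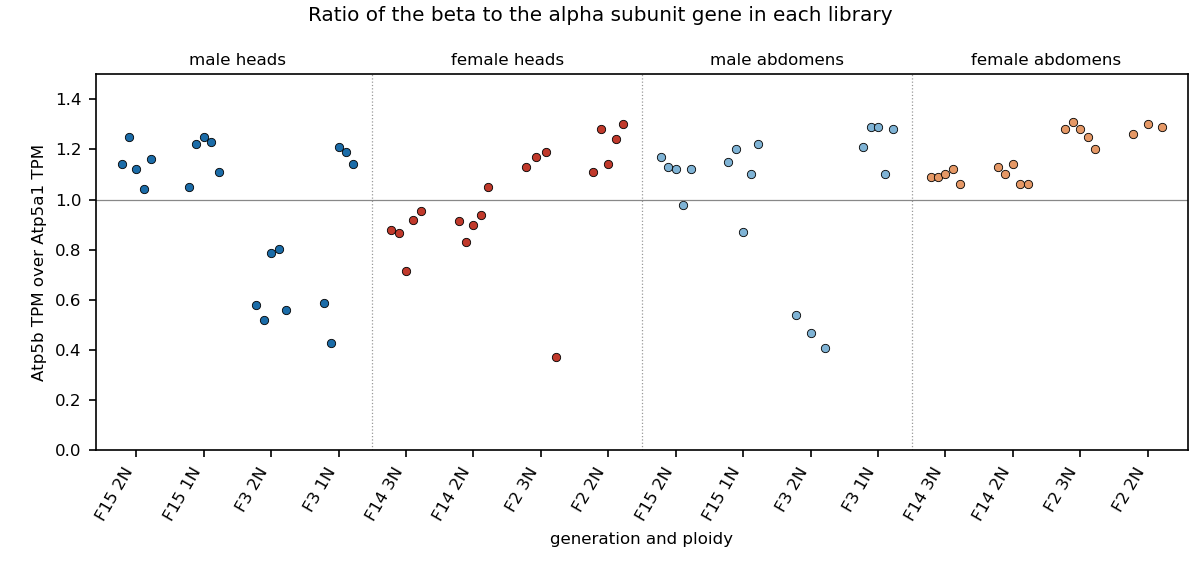
Ratio of *Atp5b* to *Atp5a1* TPM in each library (points) of the 16 groups, with a line at 1. F3 2N males lie lowest, with 0.520 to 0.801 in heads and 0.407 to 0.540 in abdomens, together with single libraries such as A35 (0.373), A2A (0.426) and A1A (0.588).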

How the data were processed

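The authors deposited expected counts per gene and TPM values of the same libraries. Per the submitters' processing notes, STAR 2.7.11a and RSEM 1.3.1 were used, and the genome build is not given in the sources used here. Symbols were read from the deposited matrix, and all 29 members also stand in a RefSeq gene table, which was used for names only. The expected counts, rounded to integers and scaled by TMM after filterByExpr, were tested with edgeR 4.0.16 in R 4.3.3 (quasi-likelihood, robust). Each p-value was adjusted by the Benjamini-Hochberg method across every gene in its fit, and genes under 0.05 were called. Ploidy and generation were fitted per sex and tissue, and tissue per sex. Sex was fitted per tissue over every group of that tissue, with 1N and 3N wasps in the fit, and the contrast was taken at 2N. These fits gave 26 comparisons. Log2 differences carry their standard error. TPM as deposited gave all levels.

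Members, lists and tests were chosen with earlier results of these data known. For each comparison *Cox7a1*, *Cox6c* and the called members with the 2 highest and 2 lowest log2 differences were named, and others are named as examples of a count. Reads that fit several genes are divided by estimation in RSEM, which makes members with near copies less certain. The alternatives were RLE size factors, total counts, DESeq2 1.42.0, no filter on low counts, fits of the compared groups only, other sets of libraries, and each library left out. The tests were checked on simulated data. Total counts had a median of 21.6 M per library.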

Additional observations from a re-analysis of the deposited data

Results flagged for a closer look

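Of 55 sets of 4 or 5 libraries examined for 1 value far from the rest, 8 had one. The cutoff flags about 1 in 20 sets of normally spread values. Sets here share libraries, and some hold values at or near 0, so the count of 8 measures no excess. *Atp5b* stood at 2361 TPM in A65 of F14 2N female heads, against 1245 to 1381 TPM in the other 4, at 790 TPM in A40 of F2 3N female abdomens (others 1131 to 1236 TPM) and at 737 TPM in A70 of F14 2N female abdomens (others 2348 to 2768 TPM). *Atp5a1* was also highest in A65, with 2238 TPM. *Cox7a1* had 1.54 TPM in A60 of F14 3N female abdomens and 0 TPM in the other 4. *Cox6c* had 16.2 TPM in A78 of F15 1N male abdomens (others 1.72 to 4.12 TPM), a library that also had the most *Cox7a1* of its group, 88.7 TPM. *Cox15* had 45.5 TPM in A89 of F15 2N male abdomens (others 30.2 to 34.3 TPM). The summed TPM of the members was 34434 in A81 of F15 2N male heads (others 39154 to 40993) and 16234 in A87 of F15 2N male abdomens (others 20628 to 21517).

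Some differences themselves differed between groups by an edgeR test of the change. The ploidy difference changed between generations for 19 of 27 members in female heads, where 2.7% of all genes were called higher and 3.77% lower. It changed for 4 of 29 in male abdomens, where 9.54% of all genes were called higher and 12% lower. The sex difference changed for 27 of 28 members in heads, where the shares of all genes were 30.6% higher and 27.2% lower, and for 8 of 29 in abdomens, where they were 21.9% and 23.1%. The tissue difference changed for 21 of 27 members in females, against 19.7% of all genes higher and 29.6% lower. In males it changed for 1 of 29, *Cox7a1*, against 12.9% higher and 10.9% lower. For ploidy in male abdomens, sex in abdomens and tissue in males, these counts lie below the share of all genes called in either direction. By direction, the 4 members for ploidy in male abdomens were all higher, a larger share than that of all genes called higher. For sex in abdomens 7 members were lower, a share close to that of all genes called lower. The counts of these comparisons are not taken as a result about the set.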

How the results depend on the processing

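Counts of called members are given first. For ploidy in F2 female heads (4) they were 19 with total counts, 2 without the filter, 0 with A34 kept, 1 without A34 and A35, 12 in DESeq2 and 0 with the compared groups only. For ploidy in F14 female heads (0) they were 14 without A34 and A35 and 7 in DESeq2, and its change (19) was 0 with A34 kept. For ploidy in F3 male heads (9) they were 5 with total counts, 3 without A1A, A2A and A15A, 14 in DESeq2 and 2 with the compared groups only, and its change (0) was 1 without those 3 libraries. For ploidy in F15 male abdomens (1) they were 3 in DESeq2 and 0 with the compared groups only, and the change (4) was 8 with total counts and 10 in DESeq2. The late sex difference in abdomens (19, with 10 higher) was 20 with total counts, with 14 lower, and the change of the tissue difference in males (1) was 3.

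Leaving out 1 library at a time gave 0 to 13 for ploidy in F2 and 0 to 14 in F14 female heads, and 6 to 23 for their change. It gave 5 to 12 for generation in female abdomens, 0 to 13 for ploidy in F3 male heads and 0 to 3 for its change, 3 to 9 in F3 and 1 to 2 in F15 male abdomens and 3 to 8 for their change, 18 to 24 for the late sex difference in abdomens, 3 to 10 for its change, and 1 to 4 for the change of the tissue difference in males. The cause was not tested. *Cox7a1* in F3 male heads stood at -0.24 without A1A, A2A and A15A (0.49 with them).

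The joint level, as a log2 difference of summed TPM, moved as follows. As a sum of TMM-scaled CPM it was -0.45 for ploidy in F14 female heads (-0.27 in TPM), -0.78 for its change (-0.62), 0.38 for generation in female abdomens (0.18), -0.49 and -0.16 for ploidy in F3 and F15 male heads (-0.25 and 0.05), -0.31 in F3 male abdomens (-0.48), -1.29 for late sex in heads (-1.03), -0.64 and -0.67 for late sex in abdomens and its change (-0.46 and -0.48), and 0.53 and 0.44 for tissue in females and males (1.13 and 0.99). As a mean of log2(TPM + 1) it was 0.02 for generation in female abdomens, -0.44 in male heads (-0.61), -0.68 and 0.02 for ploidy in F3 and F15 male abdomens (-0.48 and 0.19), -0.77 for late sex in heads and -1.16 for its change (-1.46), 0.18 and -0.20 for early and late sex in abdomens (0.02 and -0.46), and 0.80 and 0.27 for tissue in males and its change (0.99 and 0.06). With A34 kept, ploidy in F2 female heads was 0.16 (0.36) and its change -0.42. Without A1A, A2A and A15A ploidy in F3 male heads was -0.09 and its change 0.14 (0.30).

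Of the log2 differences of named members, 1826 values with 1 library left out kept their direction and side of the threshold, 47 lost the call and 1 gained it, and under the other alternatives 339 kept both, 12 lost the call, 1 gained it and 1 turned. No paired analysis was possible because the labels carry no replicate numbers shared between groups. *Cox6c* and F3 2N and F2 2N abdomens, with few counts or 3 libraries, are the least precise. Generation, library batch and depth cannot be told apart, and levels are relative to each library, so a change of RNA per wasp cannot be seen.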
